A study of Homo sapiens with 24 samples.

Results

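The core genes of the epithelial-mesenchymal transition (EMT) were followed through 4 human lung cancer cell lines. They are the adhesion genes CDH1 and EPCAM, the mesenchymal genes CDH2, VIM and FN1, and the transcription factor genes ZEB1, ZEB2, SNAI1, SNAI2 and TWIST1. These 10 genes were chosen by name, from a list of the process, out of 60623 genes in the tables. Earlier results of these data were known when they were chosen. RNA sequencing gave 24 libraries in 8 groups of 3, and the study concerns HEPACAM2, a gene of the immunoglobulin superfamily, and the contacts between cells and their matrix. In A549 and H1299, lines of non-small cell lung cancer, libraries titled OE (genotype HEPACAM2 overexpressed) were compared with libraries titled Cont (genotype WT). In DMS454 and H1694, which derive from small cell lung cancer and its neuroendocrine cells, libraries titled CRISPR (genotype HEPACAM2 knockdown) were compared with libraries titled Cont (genotype WT). The labels do not say which vector or promoter drove HEPACAM2, which guides were used, or whether an arm was a clone or a pool.

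In an epithelial-mesenchymal transition, epithelial cells lose their lateral junctions and take on the shape, cytoskeleton and matrix contacts of mesenchymal cells. Factors of the SNAI, ZEB and TWIST families bind E-box elements and repress epithelial genes, above all CDH1, while the cells gain N-cadherin, vimentin and fibronectin. Many carcinomas hold mixed states, and classic small cell lung cancer grows as loosely attached neuroendocrine cells that often keep epithelial surface proteins.

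HEPACAM2 itself was read first as a check of the labels. It averaged 6007 ± 124 in the overexpressing libraries, against 0.367 ± 0.635 in the control libraries of A549, in normalized counts (SD, n = 3 in every group here and below). In H1299 it averaged 25322 ± 1795 in the overexpressing libraries, against 2.88 ± 0.724 in the control libraries. In DMS454 the labels and the mRNA disagree, with 11187 ± 314 in the libraries labelled CRISPR, against 6550.1 ± 124 in the libraries labelled control. The same held in H1694, with 10356 ± 214 in the libraries labelled CRISPR, against 3557 ± 127 in the libraries labelled control. In both lines the deposited columns of the libraries titled Cont carry a G in their names and those titled CRISPR a pL. Whether the titles of the arms are exchanged cannot be told from these sources, so every direction in DMS454 and H1694 holds for the titles as given. Directions for these 2 lines are therefore given as labelled CRISPR minus labelled control and go with more HEPACAM2 mRNA, and the control-over-CRISPR direction of the authors' deposited fold changes is the negative of each. The A549 libraries held 16358272 to 29838960 reads and the H1299 libraries 12704476 to 20332419. Those of DMS454 held 15652553 to 30241598 reads, and for H1694 the totals lay between 19682771 and 31770858. Some libraries stood apart from their replicates, with chi-square values per degree of freedom between replicate counts of 18.5 to 26.9 for overexpressing library 1 and control library 1 of H1299, 14.4 to 18.8 for CRISPR library 3 of DMS454 and 17.1 to 23.8 for CRISPR library 1 of H1694. All other pairs of replicates lay between 1.72 and 6.58. Counts of members and of gene lists are also given without them wherever they changed. In H1299 the 2 libraries numbered 1 deviated from their group means in opposite directions across genes (correlation -0.54). Overexpressing libraries 2 and 3 varied with control library 1, and control libraries 2 and 3 with overexpressing library 1. In fits of H1299 without both libraries numbered 1, the arm therefore cannot be told apart from this grouping.

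The control libraries of the 4 lines held very different EMT profiles, given here as TPM, the field's measure of a level per transcript length and library. VIM, the intermediate filament of mesenchymal cells, led in A549 (440.3 ± 11.7 TPM) and in H1299 (2161 ± 178 TPM). It was 0.102 ± 0.054 TPM in DMS454, and H1694 held 1 VIM read in 148533875. EPCAM, an epithelial adhesion protein, led in DMS454 at 684 ± 8.56 TPM, followed by CDH1, the E-cadherin of epithelial junctions, at 253 ± 7.52 TPM. CDH1 was 40.1 ± 2.34 TPM in A549 and 0.181 ± 0.103 TPM in H1694, and it was not analysed in H1299. EPCAM was 34.4 ± 3.74 TPM in A549, 4.41 ± 0.376 TPM in H1694 and 0.388 ± 0.239 TPM in H1299. Among the 3 lines in which CDH1 was analysed, A549 and DMS454 had both E-cadherin and N-cadherin mRNA above 20 TPM.

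CDH2, the N-cadherin of neural and mesenchymal cells, was the one mesenchymal member above 20 TPM in the control libraries of every line. It was 140.2 ± 6.85 TPM in DMS454, 68.9 ± 4.90 TPM in H1694, 30.4 ± 0.756 TPM in H1299 and 21.2 ± 0.585 TPM in A549. FN1, the matrix protein fibronectin, was 22.7 ± 2.76 TPM in A549, 18.4 ± 1.12 TPM in DMS454, 6.02 ± 0.506 TPM in H1694 and 2.87 ± 0.337 TPM in H1299. The factor genes split the lines as well. TWIST1 was 18.9 ± 2.61 TPM in H1299 and 12.4 ± 1.29 TPM in A549, while DMS454 and H1694 held no TWIST1 read in 134617966 and 148533875 reads, which allows up to 0.0223 and 0.0202 RPM. SNAI1 was 56.7 ± 1.30 TPM in DMS454, 39.2 ± 0.719 TPM in H1694, 8.25 ± 1.47 TPM in A549 and 2.15 ± 0.581 TPM in H1299. SNAI2 was 9.07 ± 0.477 TPM in H1694 and at most 0.381 ± 0.240 TPM in the other lines. ZEB1 was 28.95 ± 2.01 TPM in H1694, 15.6 ± 0.973 TPM in H1299, 7.85 ± 0.803 TPM in A549 and 1.13 ± 0.191 TPM in DMS454. ZEB2 was 7.32 ± 0.378 TPM in H1694, 5.75 ± 0.0539 TPM in H1299, 0.301 ± 0.0172 TPM in A549 and 0.0687 ± 0.0230 TPM in DMS454. Within a line, the neighbours in this order whose libraries overlapped were FN1 and CDH2 in A549, SNAI1 and ZEB1 in A549, FN1 and SNAI1 in H1299, EPCAM and SNAI2 in H1299, and SNAI2, VIM and ZEB2 in DMS454. No test was made between lines, whose tables were normalized separately, and intervals for 0 reads cover counting error only.

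**Figure D1:**
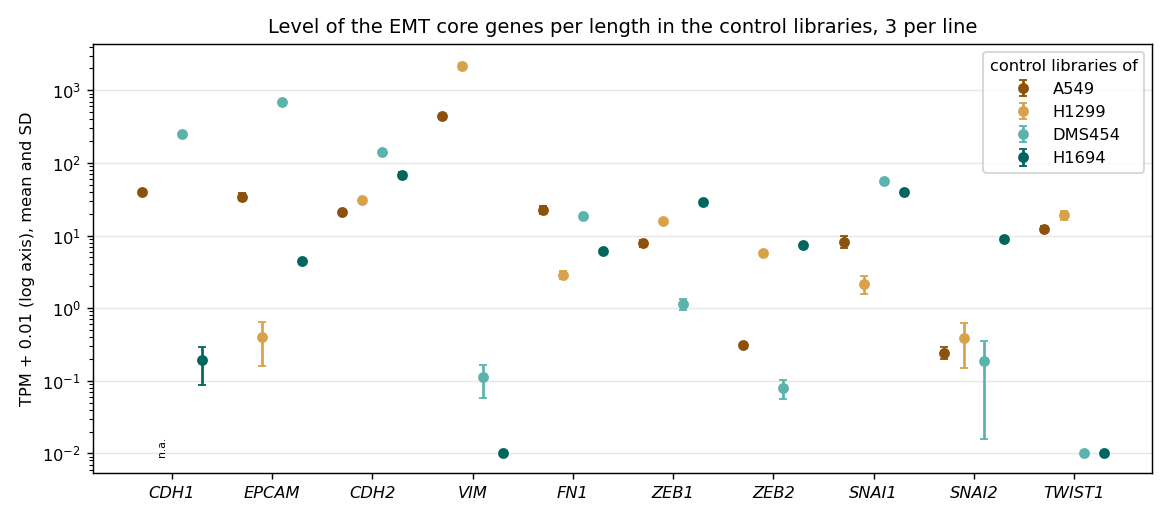
Levels of the EMT core genes in the control libraries of each line, as mean TPM with the SD over 3 libraries; 0.01 was added to each value for the log axis, and n.a. marks CDH1 in H1299, which was not analysed. VIM ran from 0 TPM in H1694 to 2161 TPM in H1299, while CDH2 stayed between 21.2 and 140.2 TPM.

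Most of these genes differed between the overexpressing and control libraries of A549, where 8 of 10 were called, while 3 of 7 were called in H1299, 1 of 7 in DMS454 and 4 of 8 in H1694. In A549, CDH1 and EPCAM fell and CDH2, VIM, ZEB2 and SNAI2 rose, while FN1 and TWIST1 fell. In H1299, VIM, FN1 and CDH2 rose. CDH2 was the one member called in DMS454, where it was higher in the libraries labelled CRISPR, and in H1694 CDH2 and ZEB2 were higher and SNAI1 and SNAI2 lower. A gene was called when its limma test on log2(normalized count + 1), adjusted over all genes tested in that line by the Benjamini-Hochberg method, gave an adjusted p under 0.05. Testing required a mean of 10 normalized counts or more in either group. Since each value is from bulk RNA, fewer cells of a kind and less RNA per cell cannot be told apart.

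Of 10 members tested in A549, 8 were called, 4 higher and 4 lower, against a background of 44.4% of all genes tested in that line (22.5% higher, 21.9% lower). One of them, SNAI2, passed the filter through the overexpressing group alone, and without it 3 were higher and 4 lower of 9. In H1299, 3 of 7 tested members were called, all higher, against 28.8% (13.5% higher, 15.3% lower), and without both libraries numbered 1 it was 4 of 7, all higher, against 54.9% of all genes tested in that fit (27% higher, 27.9% lower). In DMS454 it was 1 of 7, higher, against 18.9% (9.15% higher, 9.72% lower), and also 1 without CRISPR library 3, against 34.9% (16.7% higher, 18.2% lower). In H1694 it was 4 of 8, 2 higher and 2 lower, against 17.6% (8.73% higher, 8.9% lower). Without CRISPR library 1 it was 1 higher and 2 lower, against 25.3% (12.6% in each direction). SNAI1 in H1299 passed the filter through the control group alone, and without it 3 of 6 members were called, all higher. CDH1 in H1694 passed through the libraries labelled CRISPR alone, and without it 2 were higher and 2 lower of 7. The list and marker counts below are to be read against these shares. Those of the main fits go with 44.4% in A549, 28.8% in H1299, 18.9% in DMS454 and 17.6% in H1694. Those without the libraries that stood apart go with 54.9% in H1299, 34.9% in DMS454 and 25.3% in H1694. The median absolute log2 fold change of the members was 0.66 in A549, 0.30 in H1299, 0.10 in DMS454 and 0.18 in H1694. Over all genes tested it was 0.21, 0.28, 0.16 and 0.14 in the same order of lines. In A549 the members therefore moved further than the median gene, and in the other lines they lay near it. The groups did not overlap for 9 members in A549, 4 in H1299, 2 in DMS454 and 4 in H1694, beside 51.8%, 43.3%, 36.6% and 35% of all genes tested.

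**Figure D2:**
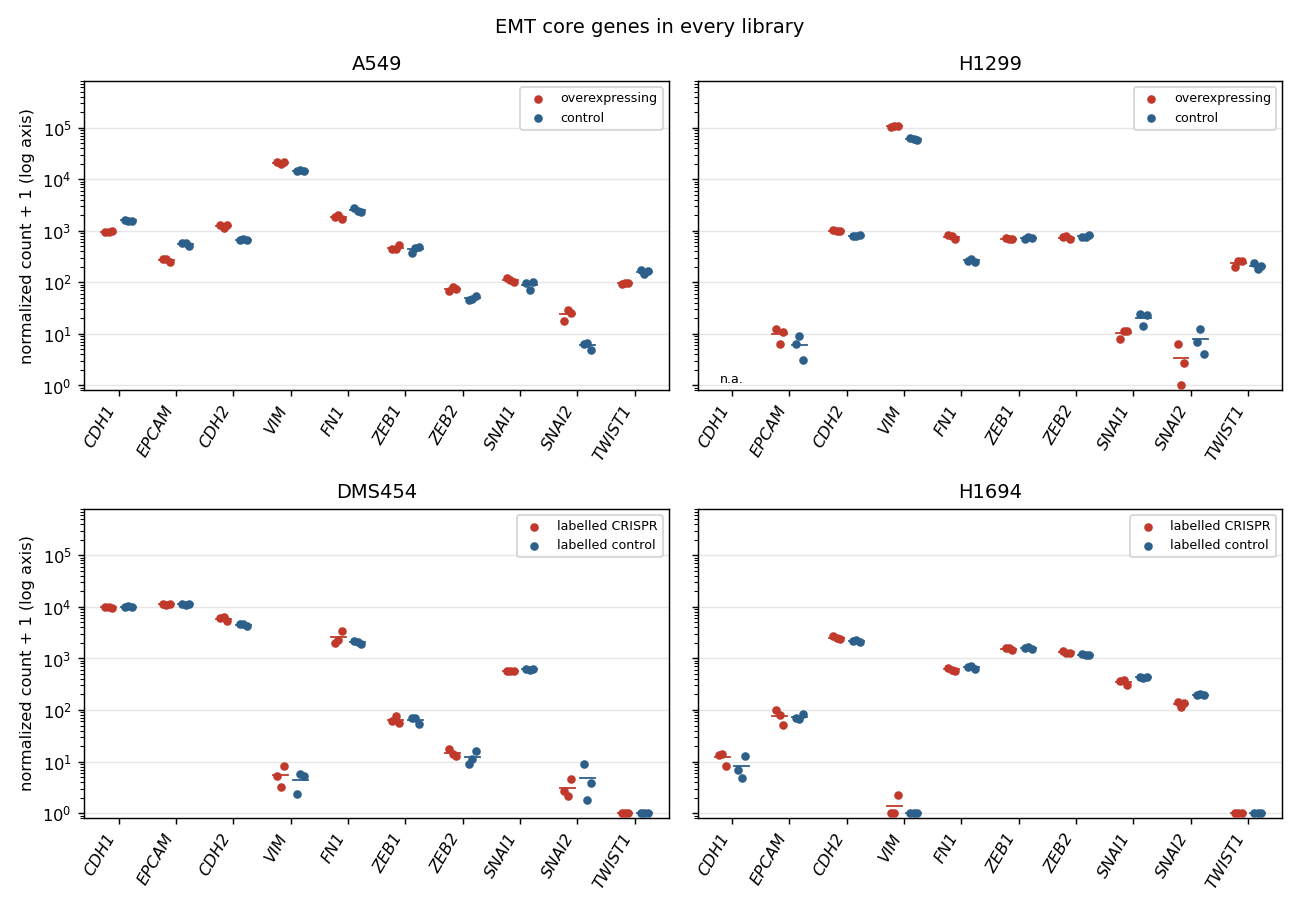
Normalized count of each member in every library (log axis, 1 added), with overexpressing or labelled CRISPR libraries in red to the left of control libraries in blue; short lines mark group means, and n.a. marks CDH1 in H1299. In A549 the red and blue points of CDH1, EPCAM, CDH2 and VIM do not overlap, while in DMS454 those of CDH1 and EPCAM do.

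CDH1 (ENSG00000039068, chromosome 16, 68737225 to 68835548, plus strand; GRCh38 in GENCODE, as for all genes here) joins epithelial cells through homophilic binding and is the classic target of SNAI and ZEB repression. In A549 its normalized counts, the unit of all values by library below and given for libraries 1 to 3, were 924, 927 and 987 in the overexpressing libraries, against 1637, 1527 and 1576 in the control libraries. Every overexpressing library lay below every control, and the gene fell to a fitted ratio of 0.599 (log2 fold change -0.74, SE 0.049, adjusted p = 1.4e-17). In DMS454 it had 9803, 10123 and 9711 in the libraries labelled CRISPR, against 10017, 10255 and 10107 in the libraries labelled control. These groups overlapped (log2 fold change -0.036, SE 0.036, adjusted p = 0.536). CDH1 in H1694 had 56 reads over all 6 libraries, with 12.7, 13.2 and 7.34 in the libraries labelled CRISPR, against 5.92, 3.75 and 12.1 in the libraries labelled control, and the groups overlapped (log2 fold change 0.63, SE 0.45, adjusted p = 0.368).

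EPCAM (ENSG00000119888, chromosome 2, 47345158 to 47387601, plus strand) encodes the epithelial cell adhesion molecule, a surface glycoprotein that carcinomas usually keep. In A549 it had 284, 288 and 247 in the overexpressing libraries, against 591, 568 and 499 in the control libraries. It fell to a fitted ratio of 0.495, with no overlap (log2 fold change -1.01, SE 0.079, adjusted p = 5.4e-15). In DMS454 EPCAM had 11513, 10860.5 and 11560.0 in the libraries labelled CRISPR, against 11221, 11092 and 11226 in the libraries labelled control, which overlapped (log2 fold change 0.016, SE 0.038, adjusted p = 0.805). EPCAM of H1694 had 97, 77.5 and 50.1 in the libraries labelled CRISPR, against 67.5, 66.8 and 81.3 in the libraries labelled control, which overlapped too (log2 fold change 0.014, SE 0.21, adjusted p = 0.975), with a sign that turned when single libraries were left out. In H1299 EPCAM lay under the filter, at 8.86 ± 3.22 in the overexpressing libraries, against 5.16 ± 3.05 in the control libraries on 44 reads in all, and was not tested.

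CDH2 (ENSG00000170558, chromosome 18, 27950966 to 28177446, minus strand), which takes the place of CDH1 in the classic cadherin switch, was called higher in all 4 lines. In A549 it had 1280.3, 1137 and 1271 in the overexpressing libraries, against 664, 681 and 661 in the control libraries. All overexpressing libraries lay above all controls (log2 fold change 0.88, SE 0.055, adjusted p = 2.0e-18). In H1299 it had 1014, 999 and 974 in the overexpressing libraries, against 786, 804 and 833 in the control libraries, again with no overlap (log2 fold change 0.30, SE 0.073, adjusted p = 0.0149). In DMS454 CDH2 had 6165, 6241 and 5376 in the libraries labelled CRISPR, against 4575, 4636 and 4283 in the libraries labelled control. The lowest library labelled CRISPR was above the highest labelled control (log2 fold change 0.40, SE 0.058, adjusted p = 6.5e-04), and the call held when any 1 library was left out. CDH2 of H1694 had 2739.7, 2506 and 2386 in the libraries labelled CRISPR, against 2223, 2288 and 2088 in the libraries labelled control, with the groups apart but close (log2 fold change 0.21, SE 0.054, adjusted p = 0.0145). The call in H1299 was lost without control library 2 (adjusted p = 0.0604), overexpressing library 2 (0.063) or overexpressing library 3 (0.0504), and the call in H1694 without CRISPR library 2 (0.0534), control library 1 (0.0554) or control library 3 (0.0814), each an adjusted p from limma. Of 13198 genes tested in all 4 lines, 17 were called higher in each, 0.129%, and CDH2 and HEPACAM2 were among them. The other genes on that list were BIK, CD276, CEP164, DEAF1, DENND2B, DUSP23, GLIS2, IRF2BPL, LIF, LRRC8A, PLEKHH1, SAMD4B, SPATS2L, VGLL4 and ZFTA, named after their values were seen. A further 2 genes were called lower in each line, 0.0152%, and 165 were called in each in any direction, 1.25%. The 4 lines share no control libraries.

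The balance of the 2 cadherins moved with these changes. The TPM ratio of CDH1 to CDH2 in A549 was 0.578, 0.654 and 0.622 in the overexpressing libraries, against 1.97, 1.80 and 1.91 in the control libraries, so that N-cadherin mRNA exceeded E-cadherin mRNA in the overexpressing libraries alone of this line. In DMS454 the ratio was 1.27, 1.30 and 1.45 in the libraries labelled CRISPR, against 1.75, 1.77 and 1.89 in the libraries labelled control, and stayed above 1 in all 6 libraries. In H1694 it averaged 0.00346 ± 0.000903 in the libraries labelled CRISPR and 0.0027 ± 0.00174 in the libraries labelled control, which overlap. No test was run on these ratios.

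VIM (ENSG00000026025, chromosome 10, 17228259 to 17237593, plus strand) encodes the filament protein that gives mesenchymal cells their stiffness. It had 21474, 20102 and 21186 in the overexpressing libraries, against 14109, 15022 and 14376 in the control libraries of A549. It rose 1.44-fold with no overlap (log2 fold change 0.53, SE 0.034, adjusted p = 8.5e-18). In H1299, where VIM was already by far the highest member, it had 101536, 105236 and 108455 in the overexpressing libraries, against 62393, 59769.9 and 57179 in the control libraries. It rose a further 1.76-fold (log2 fold change 0.81, SE 0.071, adjusted p = 1.7e-04). In the small cell lines VIM stayed under the filter. DMS454 had 4.54 ± 2.53 in the libraries labelled CRISPR, against 3.39 ± 1.77 in the libraries labelled control, on 27 reads, and H1694 had 1 read, in CRISPR library 3.

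FN1 (ENSG00000115414, chromosome 2, 215360440 to 215436172, minus strand), the fibronectin that cells bind through integrins, went in opposite directions in the 2 overexpressing lines. In A549 it had 1867, 2044 and 1725 in the overexpressing libraries, against 2774, 2395 and 2338 in the control libraries. It fell, with no overlap (log2 fold change -0.41, SE 0.076, adjusted p = 0.00146). In H1299 it had 827, 787 and 685 in the overexpressing libraries, against 264, 288 and 248 in the control libraries. It rose 2.87-fold, the largest called rise of a member in H1299 (log2 fold change 1.52, SE 0.11, adjusted p = 6.5e-05). In DMS454 FN1 had 1951, 2322 and 3454 in the libraries labelled CRISPR, against 2149, 2124 and 1924 in the libraries labelled control. CRISPR library 3, the library that stood apart, was far above the other 5, and the groups overlapped (log2 fold change 0.28, SE 0.23, adjusted p = 0.482). Without that library the log2 fold change was 0.044. FN1 of H1694 had 649, 604 and 576 in the libraries labelled CRISPR, against 674, 712 and 631 in the libraries labelled control, which overlapped (log2 fold change -0.14, SE 0.068, adjusted p = 0.179).

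The first 250 bases before the RefSeq start of VIM, CDH2 and FN1 are shown because VIM and CDH2 rose in both overexpressing lines while FN1 rose in one and fell in the other. They are read 5′ to 3′ on the gene's strand in GRCh38.p14, from chr10:17227991-17228240 on the plus strand for VIM, chr18:28177131-28177380 on the minus strand for CDH2 (the first of its listed starts) and chr2:215436069-215436318 on the minus strand for FN1. Capitals mark TGACGTCA, the cyclic AMP response element, found once, before FN1, and searched for only after these sequences had been read.
VIM: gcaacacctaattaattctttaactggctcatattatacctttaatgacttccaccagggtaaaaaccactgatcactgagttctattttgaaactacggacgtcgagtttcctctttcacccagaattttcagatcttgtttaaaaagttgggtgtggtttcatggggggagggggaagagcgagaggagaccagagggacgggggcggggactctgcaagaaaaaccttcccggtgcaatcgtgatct
CDH2: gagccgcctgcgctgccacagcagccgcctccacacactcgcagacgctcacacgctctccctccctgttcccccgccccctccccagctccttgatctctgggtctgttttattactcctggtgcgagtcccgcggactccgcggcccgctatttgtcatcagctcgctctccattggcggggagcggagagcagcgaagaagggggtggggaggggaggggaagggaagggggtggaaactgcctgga
FN1: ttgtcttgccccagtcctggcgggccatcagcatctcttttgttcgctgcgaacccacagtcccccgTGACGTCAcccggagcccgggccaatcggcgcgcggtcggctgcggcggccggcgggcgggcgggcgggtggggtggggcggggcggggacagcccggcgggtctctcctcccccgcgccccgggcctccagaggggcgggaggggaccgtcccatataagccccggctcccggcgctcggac
The E-box CANNTG, searched on both strands, was in none of these 3 windows, but the window of the other listed CDH2 start, at chr18:28036642-28036891, holds it once. Of 35116 RefSeq windows of the same length, 61.8% hold it. The form CAGGTG or CACCTG, which is contained in CANNTG and which SNAI and ZEB factors bind, is in 17.5% of windows and TGACGTCA in 1.65%. A match is only a run of letters, and its absence says nothing on a factor outside or inside the window. RefSeq windows were matched for VIM, CDH2, FN1, ZEB1 and ZEB2.

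ZEB1 (ENSG00000148516, chromosome 10, 31318495 to 31529814, plus strand) and ZEB2 (ENSG00000169554, chromosome 2, 144364364 to 144524583, minus strand) encode zinc finger homeobox repressors of CDH1. In A549 ZEB1 had 451, 435 and 521 in the overexpressing libraries, against 372, 458 and 474 in the control libraries. These overlapped (log2 fold change 0.11, SE 0.083, adjusted p = 0.285). ZEB2 was less abundant by normalized count and had 67.4, 78.9 and 72.2 in the overexpressing libraries, against 45.1, 47.1 and 52.3 in the control libraries. It rose 1.501-fold with no overlap (log2 fold change 0.59, SE 0.18, adjusted p = 0.00604). In H1299 ZEB1 had 715, 701 and 681 in the overexpressing libraries, against 689, 754 and 736 in the control libraries (log2 fold change -0.055, SE 0.079, adjusted p = 0.635). ZEB2 had 749, 774 and 684 in the overexpressing libraries, against 756, 757 and 810.1 in the control libraries (log2 fold change -0.075, SE 0.084, adjusted p = 0.537). Neither ZEB gene was called there, and both pairs of groups overlapped.

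In DMS454 ZEB1 was low and had 61.6, 74.4 and 55.7 in the libraries labelled CRISPR, against 69.2, 70.2 and 51.4 in the libraries labelled control, which overlapped (log2 fold change 0.0092, SE 0.19, adjusted p = 0.98). ZEB2 in DMS454 averaged 13.8 ± 2.57 in the libraries labelled CRISPR, against 11.2 ± 3.71 in the libraries labelled control on 78 reads (log2 fold change 0.32, SE 0.35, adjusted p = 0.58). H1694 held the most ZEB mRNA per length, and its ZEB1 had 1579.8, 1599 and 1444 in the libraries labelled CRISPR, against 1619, 1685 and 1539 in the libraries labelled control. These overlapped (log2 fold change -0.068, SE 0.054, adjusted p = 0.425). ZEB2 had 1381, 1296 and 1282 in the libraries labelled CRISPR, against 1214, 1182 and 1149.7 in the libraries labelled control. Its groups were just apart and it was called higher (log2 fold change 0.16, SE 0.051, adjusted p = 0.0428), but the call was lost in 5 of 6 fits that left out 1 library, with adjusted p values up to 0.149, and with DESeq2 (0.104) or no filter (0.0734). VIM, ZEB1 and ZEB2 have antisense partner genes, and the strand setting of the authors' counting is not given in the sources used here, so reads of the partners cannot be told apart from theirs.

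SNAI1 (ENSG00000124216, chromosome 20, 49982999 to 49988886, plus strand) encodes the zinc finger repressor Snail. It had 119.5, 109 and 103 in the overexpressing libraries, against 95.7, 71.3 and 99.3 in the control libraries of A549. The groups did not overlap, yet the gene missed the threshold (log2 fold change 0.32, SE 0.15, adjusted p = 0.0703), and it passed without control library 3 (adjusted p = 0.0425, limma). In H1299 SNAI1 had 7.14, 10.6 and 10.5 in the overexpressing libraries, against 23.6, 13.3 and 21.8 in the control libraries, on 89 reads in all. All overexpressing libraries were lower, but it was not called (log2 fold change -0.96, SE 0.34, adjusted p = 0.0616), while edgeR gave an adjusted p of 0.0495. In DMS454 it had 575, 579.6 and 575 in the libraries labelled CRISPR, against 635, 593 and 631 in the libraries labelled control. The libraries labelled CRISPR lay below those labelled control and the gene was not called (log2 fold change -0.10, SE 0.065, adjusted p = 0.303). SNAI1 in H1694 had 366, 377 and 308 in the libraries labelled CRISPR, against 428, 419.7 and 432 in the libraries labelled control. The gene was called lower (log2 fold change -0.29, SE 0.086, adjusted p = 0.0292), a call lost with edgeR (adjusted p = 0.0518), with DESeq2 (0.0668) and in 4 of 6 fits that left out 1 library (up to 0.123).

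SNAI2 (ENSG00000019549, chromosome 8, 48917604 to 48921740, minus strand), the close relative also called Slug, rose in A549 and was lower in the H1694 libraries labelled CRISPR. In A549 it had 16.6, 28.2 and 24.5 in the overexpressing libraries, against 5.5, 5.75 and 3.97 in the control libraries, from 69 and 16 reads. The lowest overexpressing library exceeded the highest control (log2 fold change 1.97, SE 0.38, adjusted p = 3.3e-05). SNAI2 passed the filter through the overexpressing group alone, since the control mean was 5.07, and with no filter on low values its limma adjusted p was 2.1e-05. H1694 held the most SNAI2 per length and had 143, 115 and 133 in the libraries labelled CRISPR, against 198, 204 and 193 in the libraries labelled control. It fell to a fitted ratio of 0.657, with no overlap (log2 fold change -0.61, SE 0.12, adjusted p = 0.00195), and the call held in every fit that left out 1 library, with adjusted p values up to 0.0176. In H1299 SNAI2 averaged 2.37 ± 2.73 in the overexpressing libraries, against 6.82 ± 4.11 in the control libraries on 29 reads. In DMS454 it averaged 2.13 ± 1.32 in the libraries labelled CRISPR, against 3.9 ± 3.81 in the libraries labelled control on 17 reads. It was not tested in these 2 lines.

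TWIST1 (ENSG00000122691, chromosome 7, 19020991 to 19117672, minus strand) encodes a basic helix-loop-helix factor of mesoderm and neural crest. In A549 it had 91.1, 98.2 and 94.2 in the overexpressing libraries, against 172, 145 and 164 in the control libraries. It fell to a fitted ratio of 0.593, with no overlap (log2 fold change -0.75, SE 0.13, adjusted p = 3.0e-06). In H1299 it had 198, 257 and 257 in the overexpressing libraries, against 235, 181 and 204 in the control libraries. The groups overlapped (log2 fold change 0.20, SE 0.15, adjusted p = 0.355), but without both libraries numbered 1, which stood apart, TWIST1 was called higher (log2 fold change 0.42, adjusted p = 0.00597, limma). Overexpressing library 1 lay between control libraries 2 and 3, while control library 1 lay nearest to overexpressing libraries 2 and 3. That call therefore cannot be told apart from a difference between these sets of libraries.

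**Figure D3:**
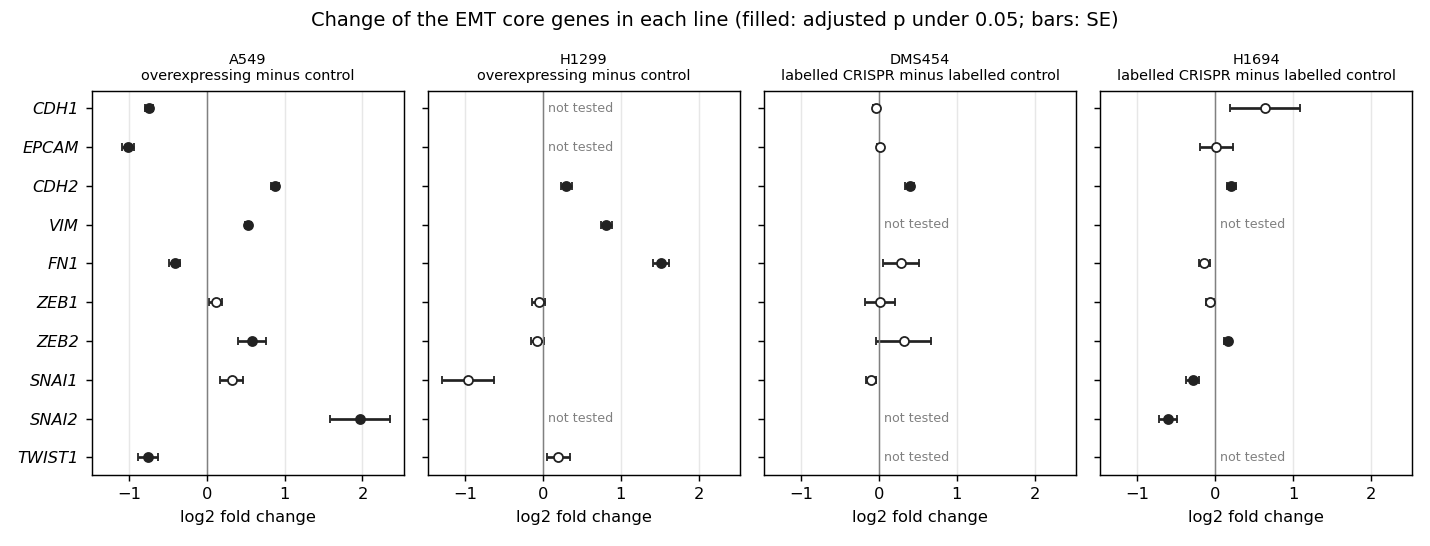
Log2 fold change of each member in each line (overexpressing minus control, or labelled CRISPR minus labelled control), with SE bars; filled points had an adjusted p under 0.05 and genes under the filter or not analysed are marked as not tested. CDH2 is the one member with a filled point to the right of 0 in all 4 panels, from 0.21 in H1694 to 0.88 in A549.

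The response to overexpression differed between A549 and H1299 for most members. A limma test of the difference of log2 fold changes, A549 minus H1299, called 8 of 9 members tested, against 37.4% of all genes tested (20.2% higher, 17.2% lower). The widest gap among genes well above the filter in both lines was that of FN1, at -1.93 (SE 0.13, adjusted p = 1.1e-07). TWIST1 differed by -0.95 (SE 0.19, adjusted p = 0.00118), SNAI1 by 1.28 (SE 0.35, adjusted p = 0.00989) and ZEB2 by 0.66 (SE 0.14, adjusted p = 0.00221). Of these, SNAI1 was called in neither line by itself. It had 89 reads in H1299, where it passed the filter through the control group alone. CDH2 rose in both lines and more in A549, by 0.57 (SE 0.088, adjusted p = 1.4e-04), while VIM rose in both and less in A549, by -0.29 (SE 0.071, adjusted p = 0.00522). SNAI2 differed by 3.42 (SE 0.84, adjusted p = 0.00495) and EPCAM by -1.77 (SE 0.47, adjusted p = 0.00808), but both lay under the filter in H1299. Both are among the 8 called, and SNAI2 entered this test through the overexpressing group of A549 alone. ZEB1 did not pass, at 0.17 (SE 0.14, adjusted p = 0.357). CDH1 was tested in A549 alone.

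Between DMS454 and H1694 no member differed by this limma test, 0 of 8 against 14.4% of all genes tested (7.41% higher, 6.97% lower), also 0 with edgeR and 0 at an unadjusted p under 0.05. The difference for CDH2 was 0.19 (SE 0.091, adjusted p = 0.195). Without CRISPR library 3 of DMS454 it passed, at 0.26 (adjusted p = 0.0351). FN1 differed by 0.42 (SE 0.21, adjusted p = 0.209) and SNAI1 by 0.18 (SE 0.10, adjusted p = 0.267), both short of the threshold. FN1 passed without CRISPR library 1 of DMS454, at 0.60 (adjusted p = 0.0458), and CDH1 without control library 3 of H1694, at -1.07 (adjusted p = 0.0231). SNAI2 differed by 0.19 (SE 0.65, adjusted p = 0.885), on 17 reads in DMS454.

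Other genes of the transition were counted from lists that, like the members, were chosen with earlier results of these data known. The counts therefore describe these genes and are not independent support. Of all genes tested, 44.4% were called in A549, 28.8% in H1299, 18.9% in DMS454 and 17.6% in H1694. Among mesenchymal genes, 18 of 22 tested rose and 2 fell in A549, with a median log2 fold change of 1.15 against -0.0019 over all genes tested. Without TNC, a matrix glycoprotein gene that passed the filter through the overexpressing group alone, 17 of 21 rose and the median was 1.02. SPARC, a collagen-binding matrix glycoprotein, had 849 ± 2.67 in the overexpressing libraries, against 58.9 ± 6.96 in the control libraries (log2 fold change 3.83, SE 0.10, adjusted p = 2.4e-33). COL1A1, a chain of type I collagen, and TAGLN, an actin-binding protein of contractile cells, rose by 3.03 and 2.96 on the log2 scale. In H1299, 12 of 19 rose and 2 fell, with a median of 0.42 against 0.0018 over all genes tested, and 12 rose and 3 fell without both libraries numbered 1. There the matrix metalloproteinase gene MMP2 had 129 ± 11.1 in the overexpressing libraries, against 4.54 ± 0.501 in the control libraries (log2 fold change 4.56, SE 0.22, adjusted p = 1.2e-05). MMP2 passed the filter through the overexpressing group alone, and without it 11 of 18 rose with a median of 0.38, while with no filter its limma adjusted p was 2.3e-06. TGFBI, a matrix protein induced by TGF-beta, and SPARC rose by 1.55 and 1.71. In DMS454 1 of 14 was called, NT5E, an ecto-nucleotidase, at 0.33, a call lost in 5 of 6 fits that left out 1 library, and without CRISPR library 3 the list held 3 higher and 1 lower of 15. In H1694 3 of 18 were higher and 5 lower, with CDH11, a mesenchymal cadherin, at -1.03, LOX, a collagen crosslinking enzyme, at -1.53 and COL1A1 at 0.70. One of the 5, CAV1, passed the filter through the control group alone. Without CRISPR library 1 the counts were 4 higher and 7 lower.

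Fibroblast markers were read beside the mesenchymal list, which shares COL1A2, COL3A1 and THY1 with them. In A549 2 of 4 tested fibroblast markers rose, THY1 and PDGFRA, and none fell. PDGFRA averaged 10.8 in the overexpressing libraries, against 1.98 in the control libraries, and passed the filter through the first of these groups alone, which leaves 1 of 3. The list summed to 301 to 337 normalized counts in the overexpressing libraries, against 129 to 143 in the control libraries. LUM had 67 reads over the 6 A549 libraries, COL3A1 had 39.8 ± 10.5 in the overexpressing libraries, against 53.3 ± 2.09 in the control libraries and was not called, and no marker analysed was at 0. In H1299 the sums were 9.81 to 17.3 in the overexpressing libraries, against 8.18 to 12.5 in the control libraries. In DMS454 they were 64.3 to 75.7 in the libraries labelled CRISPR, against 55.6 to 73.3 in those labelled control, and 1 of 2 tested markers was called higher. This was PDGFRA, at 13.98 in the libraries labelled CRISPR, against 1.37 in those labelled control, which passed the filter through the libraries labelled CRISPR alone. In H1694 they were 1045 to 1226 in the libraries labelled CRISPR, against 1353 to 1455 in those labelled control. COL1A2, the largest part of that sum at 1044 ± 84.5 in the libraries labelled CRISPR, against 1324 ± 46.7 in those labelled control, was the 1 of 2 tested markers called, lower, and COL3A1 and LUM were at 0 reads. The part of these markers in the mesenchymal rise was not tested.

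Epithelial regulators fell in A549 with CDH1 and EPCAM. Of 7 tested epithelial identity factors, 5 fell and none rose, beside 44.4% of all genes called in A549, with a median of -0.58. KLF5, a zinc finger factor of epithelial progenitors, had 1064 ± 35.8 in the overexpressing libraries, against 2252 ± 108 in the control libraries (log2 fold change -1.08, SE 0.046, adjusted p = 1.8e-24). FOXA1, a pioneer factor of endodermal epithelium, fell by 0.95 and the ETS factor EHF by 1.94 on the log2 scale. Of 17 epithelial junction and surface genes, 10 fell and 1 rose in A549, with a median of -0.39. Without LAD1, which passed the filter through the control group alone, 9 of 16 fell and the median was -0.33. The tight junction genes TJP3, CLDN4 and CLDN7 fell by 1.67, 1.18 and 1.07. Of 4 keratins of simple epithelium, KRT18 and KRT8 fell with 1 more, while KRT7 rose by 0.33. In H1299 none of 4 identity factors was called by limma, edgeR or DESeq2, and 0 had an unadjusted p under 0.05, with KLF5 at -0.23, but 1 of 3 rose without both libraries numbered 1. There 2 junction genes rose and 4 fell of 12, beside 28.8% of all genes called. Without those libraries 4 rose and 5 fell, beside 54.9%. AP1M2, a basolateral sorting adaptor, changed by -1.40 and PKP2, a desmosome plaque protein, by -0.90, while SPINT2, a serine protease inhibitor, changed by 1.002. KRT7 was the one keratin of 3 called there, at 1.098, and this call was lost with edgeR, TMM scaling and in 4 of 6 fits that left out 1 library. Without both libraries numbered 1, 1 keratin rose and 1 fell.

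Although CDH1 and EPCAM were not called in DMS454, 10 of 22 junction and surface genes were lower and none higher in the libraries labelled CRISPR, with a median of -0.18. MARVELD3, a tight junction protein, had 2169 ± 177 in the libraries labelled CRISPR, against 2880.4 ± 93.9 in the libraries labelled control (log2 fold change -0.41, SE 0.058, adjusted p = 4.7e-04). JUP, the plakoglobin of desmosomes, changed by -0.40 and MARVELD2, the tricellulin of tricellular junctions, by -0.22. Without CRISPR library 3, 17 of 22 were lower and none higher, in a fit that called 34.9% of all genes against 18.9% with it. Of the keratins, 2 of 4 were lower, KRT19 at -0.53 and KRT7 at -0.20, and of 12 identity factors the splicing regulator ESRP2 was higher at 0.19 and FOXA2, a factor of foregut endoderm, lower at -0.16. The calls of ESRP2 and FOXA2 were lost in 3 and 4 of 6 fits that left out 1 library, and that of KRT7 in 2. Without CRISPR library 3, 1 keratin was higher and 2 lower, and 2 identity factors were higher and 2 lower of 11. In H1694 3 junction genes of 11 were lower and 1 higher, among them F11R at -0.68 and OCLN, the occludin gene, at -0.33, both lost in at least 4 of 6 fits that left out 1 library, and DSP, a desmosome protein, at 0.20, lost in 2. Without CRISPR library 1, 4 were lower and 1 higher, in a fit that called 25.3% of all genes against 17.6% with it. Of 3 keratins, KRT19 was lower at -1.36 and KRT18 at -0.45, the KRT18 call being lost with DESeq2 (adjusted p = 0.0682) and in 4 of 6 fits that left out 1 library (up to 0.129). No identity factor of 5 was called by limma, edgeR or DESeq2, with 1 at an unadjusted p under 0.05 and FOXA1 at 0.037.

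**Figure D4:**
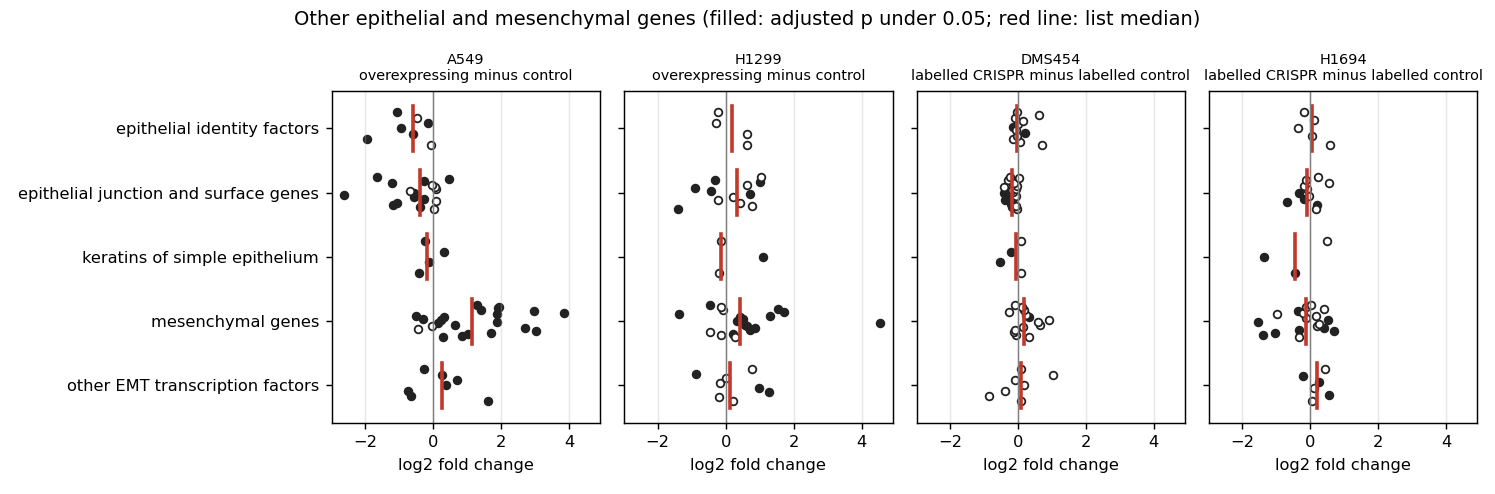
Log2 fold changes of the tested genes of 5 lists in each line (overexpressing minus control, or labelled CRISPR minus labelled control); filled points had an adjusted p under 0.05 and red lines mark list medians. The mesenchymal median is 1.15 in A549 and 0.42 in H1299, and the junction median is -0.39 in A549 and -0.18 in DMS454.

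The other EMT transcription factors moved in both directions. Beside them, 44.4% of all genes tested were called in A549, 28.8% in H1299, 18.9% in DMS454 and 17.6% in H1694. In A549 4 of 7 rose and 3 fell, with FOSL1, an AP-1 subunit, at 1.60, TCF4, a basic helix-loop-helix factor, at 0.69 and SOX9, a factor of progenitors and cartilage, at -0.75. In H1299 2 of 8 rose and 1 fell, with PRRX1, a mesenchymal homeobox factor, at 1.26, SOX9 at 0.97 and TEAD1, a partner of YAP1, at -0.88. Without both libraries numbered 1, 5 rose and 1 fell. In DMS454 none of 7 was called by limma, edgeR or DESeq2, with 3 at an unadjusted p under 0.05 and TEAD1 at 0.075, but 1 was higher and 3 lower of 6 without CRISPR library 3. In H1694 2 of 6 were higher and 1 lower, SOX9 at 0.53, TCF4 at 0.27 and TEAD1 at -0.21, the last lost in 4 of 6 fits that left out 1 library (limma adjusted p up to 0.13). SOX9 therefore fell in A549 and rose in H1299 and was higher in the H1694 libraries labelled CRISPR.

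Partners of the member proteins were counted as well, beside shares of all genes called of 44.4% in A549, 28.8% in H1299, 18.9% in DMS454 and 17.6% in H1694. The catenin count in H1299 lay near its share. Of the catenin partners that anchor cadherins to actin, 3 of 4 rose and 1 fell in A549, with CTNNB1, the beta-catenin gene, at 0.31, CTNNA1 at 0.20 and VEZT at 0.14. In H1299 CTNND1, the p120 catenin gene, was the one of 4 called, at 0.34, and 1 rose and 1 fell without both libraries numbered 1. In DMS454 none of 5 was called by limma or edgeR and 1 by DESeq2, with 3 at an unadjusted p under 0.05 and CTNND1 at -0.020, but 2 were lower without CRISPR library 3. In H1694 2 of 6 were higher and 1 lower, with CTNND2 at 0.16 and CTNND1 at 0.14. Each of these calls was lost in 5 of 6 fits that left out 1 library, and none was higher and 1 lower without CRISPR library 1.

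Among fibronectin receptors and assembly genes, 4 of 7 rose and 2 fell in A549, where FN1 itself fell. TNS1, a focal adhesion adaptor, changed by 2.01, the syndecan SDC4 by 0.41 and the integrin chain ITGAV by 0.39. In H1299, where FN1 rose, 4 of 6 rose and none fell, and 5 rose without both libraries numbered 1. ITGA5 and ITGB1, the chains of the main fibronectin receptor, rose by 0.63 and 0.34 and ITGB3 by 1.91. In DMS454 1 of 4 was higher and 2 lower, with SDC4 at 0.21, TNS1 at -0.76 and ITGAV at -0.29. In H1694 none of 6 was higher and 4 were lower, with ITGA4 at -0.32, TNS1 at -0.27 and ITGAV at -0.18, the last lost in 3 of 6 fits that left out 1 library. Without CRISPR library 1, 5 were lower. The shares of all genes called in the main fits were 44.4% in A549, 28.8% in H1299, 18.9% in DMS454 and 17.6% in H1694.

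Genes that repress with or modify the EMT factors gave 7 higher and 2 lower of 13 in A549, led by LOXL2, a lysyl oxidase relative that binds SNAI1, at 0.88. The Hippo kinase LATS2 was at 0.63 and the corepressor CTBP2 at 0.26. In H1299 3 of 13 fell and none rose, LATS2 at -0.71, CTBP2 at -0.34 and the casein kinase CSNK2A1 at -0.31. The CSNK2A1 call was lost in 4 of 6 fits that left out 1 library (limma adjusted p up to 0.0697), and 2 rose and 6 fell without both libraries numbered 1. In DMS454 2 of 12 were higher, the ubiquitin ligase subunit FBXL14 at 0.31 and CSNK2A1 at 0.24. The FBXL14 call was lost in 5 of 6 fits that left out 1 library (limma adjusted p up to 0.13), and 4 were higher and 2 lower without CRISPR library 3. In H1694 2 of 13 were higher, LATS2 at 0.57 and the demethylase KDM1A at 0.21. Of all genes tested, 44.4% were called in A549, 28.8% in H1299, 18.9% in DMS454 and 17.6% in H1694. The counts of this list in the main fits of H1299, DMS454 and H1694 lay below those shares.

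Cell type markers matched the labelled lines in part. INSM1, a zinc finger factor of neuroendocrine cells, had 24099.5 ± 686 in the libraries labelled CRISPR, against 25056 ± 299 in the libraries labelled control in DMS454. NEUROD1, a neuronal basic helix-loop-helix factor, had 21074 ± 359 in the libraries labelled CRISPR, against 21706 ± 80.5 in the libraries labelled control in H1694, where YAP1 was at 0 reads. Neither difference was called, but other genes of the neuroendocrine list were. Of 7 tested in DMS454, 3 were higher in the libraries labelled CRISPR and 1 lower. On the log2 scale NEUROD1 was at 0.71, YAP1 at 0.54, CHGA at 0.32 and NCAM1 at -0.70 there. YAP1 ran against the name of this list. Its control level was 111 TPM in H1299 and 56.8 TPM in A549, against 6.48 TPM in DMS454 and 0 in H1694. Its rise in DMS454 is therefore not read as a neuroendocrine one. In H1694 none of 6 was higher and 1 was lower, NCAM1 at -0.26. YAP1, a Hippo pathway coactivator, had 2463 ± 105 in the overexpressing libraries, against 2284 ± 124 in the control libraries in A549 and rose, and had 3239.5 ± 84.7 in the overexpressing libraries, against 3751 ± 189 in the control libraries in H1299 and fell. Epithelium markers, a list that holds CDH1 and EPCAM, fell in A549 in 5 of 5 cases, and 0 of 2 were called in H1299, 1 of 5 in DMS454 and 2 of 4 in H1694, all lower. Lung adenocarcinoma markers were low in A549, at 23.3 to 31.9 normalized counts in the overexpressing libraries against 18.7 to 24.1 in the control libraries. In the small cell line H1694 they summed to 574 to 692 in the libraries labelled CRISPR, against 628 to 674 in those labelled control. NKX2-1 made up most of this, at 638 ± 63.7 and 643 ± 22.5. None of these markers was called in any line. Leukocyte markers summed to at most 103 normalized counts in any library. Endothelial markers summed to at most 34.8 in A549, H1299 and DMS454, while in H1694 CDH5 alone had 3711 ± 65.1 in the libraries labelled CRISPR, against 3127 ± 33.1 in the libraries labelled control and was called higher. Of the RNA quality genes, mitochondrial transcripts, MALAT1, NEAT1 and a histone gene, NEAT1 in H1299 was the one called, at 0.67. Their sums varied widely within groups, so few calls do not show equal RNA quality. They ran from 277828 to 566492 normalized counts in H1694 and 237855 to 420135 in DMS454 (labelled CRISPR), and 242311 to 441203 in H1299 (overexpressing). The controls of these lines held 307929 to 435550, 337621 to 372552 and 311986 to 476262 in the same order.

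For the members tested in all lines, the genes whose 4 log2 fold changes lay nearest by Euclidean distance were listed among 9508 or 9509 candidates. CDH2 was nearest to FSD1 (distance 0.29), SAMD4B (0.29) and FSTL3 (0.29), of which SAMD4B was also among the genes called higher in every line. FN1 was nearest to SLC40A1 (0.28), PHGDH (0.36) and PAQR8 (0.36). ZEB1 was nearest to ZDHHC5 (0.043), SAP30 (0.049) and MTR (0.051), all with small changes. ZEB2 was nearest to WNK1 (0.18), ZNF462 (0.19) and IL18BP (0.19), and SNAI1 to ZNF607 (0.16), CDC25A (0.22) and TEAD1 (0.22). These distances describe 4 values per gene.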

How the data were processed

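Total RNA of A549, H1299, DMS454 and H1694 cells was extracted with on-column DNase treatment and made into strand-specific libraries, 3 per group, called independent biological replicates in the series' design text. The submitters' processing notes name CASAVA, FastQC, Trim Galore, STAR, DESeq2 and hg38; no version, counter, annotation or strand setting is given in the sources used here. As deposited, the per-library values and their means are a signal, namely read counts divided by the authors' size factors. The deposited fold changes and their SE are on a log2 scale, the deposited Wald statistic is a score, and the deposited p-value columns hold the authors' raw and adjusted p-values.

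Whole reads were recovered from 100% of values within 0.01 and gave totals per library; 0 value columns were left unmapped. TPM was computed from these reads and exon lengths of GENCODE release 29, matched by identifier. limma 3.58.1 (trend, robust; R 4.3.3) was fitted to log2(normalized count + 1) within each line, for genes reaching a mean of 10 in 1 group, two-sided, with Benjamini-Hochberg adjustment over all genes tested and a threshold of 0.05. A count model had been named for tables of raw counts; since the tables hold normalized values, limma is the main test. Differences between lines were limma contrasts of within-line changes over 12 libraries. Alternatives were TMM scaling, no filter, a filter at 50, a pseudocount of 5, edgeR 4.0.16 and DESeq2 1.42.0 on the recovered reads, the replicate number as a block, and each library left out in turn. List counts without the libraries that stood apart were added after seeing the data. Scripts were tested on simulated data, and figures were drawn with matplotlib 3.10.9.

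The members and lists were chosen with earlier results of these data known. Besides the members and HEPACAM2, the text names per list and line up to 3 called genes of largest change that reach a group mean of 50 normalized counts, or the highest where none was called, and the 3 genes nearest to each member. Markers are given without this rule. The summed level of the neuroendocrine markers is not reported here.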

Additional observations from a re-analysis of the deposited data

Results flagged for a closer look

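The log2 fold changes of 8 members with HEPACAM2 overexpression differed between A549 and H1299 in the limma test of the difference itself, A549 minus H1299. FN1 had the most certain one, at -1.93, since it fell in A549 and rose in H1299. TWIST1 differed by -0.95, SNAI1 by 1.28 and ZEB2 by 0.66. CDH2 and VIM rose in both lines and differed in size, by 0.57 and -0.29. SNAI2 differed by 3.42 and EPCAM by -1.77, both with few reads in H1299, where SNAI1 had few as well. SNAI1 was called in neither line by itself. SNAI2 reached the filter through the overexpressing group of A549 alone.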

How the results depend on the processing

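The counts of members called kept within 1.5 times of their main value under every alternative in A549 (7 to 9), H1299 (2 to 4) and DMS454 (1). In H1694, 4 members were called, against 2 with DESeq2 and 1 to 3 when single libraries were left out. Between A549 and H1299, 7 or 8 members differed. Between DMS454 and H1694 it was 0, and 0 to 1 when single libraries were left out. Over all genes, H1299 had 4665 calls, 2674 to 5429 when single libraries were left out and 8922 without both libraries numbered 1. In the last of these fits the arm cannot be told apart from the grouping of the H1299 libraries. DMS454 had 3560 calls, 1964 to 6605 when single libraries were left out, with 6605 without CRISPR library 3. H1694 had 3134 calls, 1835 to 4510 when single libraries were left out. Where this left an arm with 2 libraries, fewer samples carry the test.

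Changes of sign concerned uncalled members. ZEB1 in DMS454 was at 0.0092, against -0.026 with edgeR and -0.016 with DESeq2, and ran from -0.13 to 0.10 when single libraries were left out. EPCAM in H1694 ran from -0.20 to 0.27 over the same fits. For the difference DMS454 minus H1694, EPCAM was -0.10 with edgeR. With single libraries left out it ran from -0.26 to 0.21, ZEB1 from -0.067 to 0.17, ZEB2 from -0.025 to 0.39 and SNAI2 from -0.38 to 0.80. The cause was not tested.

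Replicate numbers did not pair the samples, since correlations of the deviations of same-numbered libraries ran from -0.54 to 0.12. The libraries of H1299 were grouped otherwise. Overexpressing library 1 correlated with control libraries 2 and 3 (0.24 and 0.39), and control library 1 with overexpressing libraries 2 and 3 (0.33 and 0.38). This grouping crosses the arms unevenly, and its part in the H1299 contrasts was not tested. In the other lines all correlations lay between -0.17 and 0.16. With the replicate number as a block, H1299 had 1634 calls and 2 members called, CDH2 being lost (adjusted p = 0.136, limma) and, among list genes, CTBP2 (0.101), CTNND1 (0.104), ITGB1 (0.113), CSNK2A1 (0.121) and KRT7 (0.0893), and VIM no longer differed between A549 and H1299 (adjusted p = 0.0881). In no line did every sample correlate best with its own number. A filter at 50 left SNAI2 in A549 and other low members without a value. Read numbers limit EPCAM and SNAI2 in H1299 and VIM and SNAI2 in DMS454.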
